A study of Mus musculus with 6 samples.

Results

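Helios (Ikzf2) and 8 genes around it were followed, 9 genes of 19938 measured. They are the 5 Ikaros family genes Ikzf1 to Ikzf5 and 4 genes of the CD4 T cell lineage, Gata3, Zbtb7b, Cd4 and Foxp3. The genes were chosen by symbol, and each was read from a probe set annotated to that symbol alone. Where a gene had several such probe sets, one was selected on the highest mean log2 intensity over the 6 arrays, a choice that arose only for Ikzf5. The means that this rule used ran from 5.33 for Ikzf4 to 11.40 for Ikzf1. The list was drawn up when Ikzf2 and Zbtb7b were already known to be higher in these data, so the values below describe the genes and are no independent evidence for them.

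Each array held RNA of CD8+ T cells with little surface CD44, an activation marker, which a cell sorter had separated from spleen and lymph node cells. Sanroque mice (Roquinsan/san) are homozygous for the sanroque allele of Roquin, an RNA-binding repressor of mRNAs encoded by Rc3h1, and the wild-type mice carried Roquin+/+. All mice were on the C57BL/6 background and 10 weeks old. Each genotype gave 3 arrays, which the labels call biological replicates, and the allele is present in every cell of the mouse rather than in CD8+ T cells alone. The question was how transcript levels in these cells differ with the Roquin genotype.

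Ikaros family proteins are zinc finger transcription factors: fingers near one end bind DNA and fingers at the other end pair the proteins with each other. They recruit chromatin complexes such as NuRD, and Ikaros itself is required for lymphocyte development. Gata3 and ThPOK, the product of Zbtb7b, direct developing thymocytes to the CD4 helper lineage, while Runx3 opposes them in the CD8 lineage, so mature CD8+ T cells normally keep ThPOK and CD4 low. Foxp3 is the defining factor of regulatory T cells, where Helios (Ikzf2) and Eos (Ikzf4) are also found, and Helios is in addition known from subsets of activated and regulatory CD8+ T cells.

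The gate was checked first. Cd8a, a chain of the CD8 coreceptor, read 12.99, 13.02 and 12.99 on the sanroque arrays and 13.05, 13.00 and 13.01 on the wild-type arrays (log2 intensity, replicates 1 to 3), and Cd8b1 read 12.82 to 12.99 in sanroque and 12.92 to 13.05 in wild type. Below, a log2 fold is sanroque minus wild type ± its standard error, and a gene is called where limma's p, adjusted over all genes, was below 0.05. Of 6 CD8 T cell markers 0 were called higher and 1, the CD3 chain gene Cd3d, was lower (log2 fold -0.52 ± 0.09, limma, adjusted p = 0.0263). The log2 of their summed intensity ran from 14.97 to 15.00 in sanroque and from 15.09 to 15.14 in wild type. Of the 6, 0 had a log2 fold above 0, where 38.5% of all genes did. The groups of 3 did not overlap with sanroque lower, where 13.2% of all genes did so. Cd44, the gene of the marker that the gate took as low, was called higher: it read 7.34, 7.70 and 7.90 in sanroque and 5.98, 6.43 and 6.34 in wild type (log2 fold 1.40 ± 0.17, limma, adjusted p = 0.00669). Rc3h1 had a log2 fold of 0.14 ± 0.10, which does not check the labels because the allele is a point mutation. Markers of other cells moved with genotype. The log2 of the summed intensity ran from 13.03 to 13.32 in sanroque and from 11.10 to 12.43 in wild type for 11 B cell markers, 7 of them called higher. For 13 monocyte, macrophage and neutrophil markers, 12 of them called higher, it ran from 12.89 to 13.58 in sanroque and from 9.75 to 10.58 in wild type. Of 6 plasma cell markers 4 were called higher, and the sum ran from 10.68 to 11.12 in sanroque and from 9.04 to 9.70 in wild type. Of 6 NK cell markers 3 were called higher: Klre1, Eomes and Fcgr3. The sum, most of it Eomes, ran from 9.63 to 10.18 in sanroque and from 8.64 to 8.91 in wild type. Wild type replicate 2 was the highest wild-type array for these 4 lists. Xist read 11.20 in sanroque replicate 1 and 4.02 to 4.17 on the other 5 arrays. In sorted but bulk RNA, more cells of a type and more RNA per cell cannot be told apart.

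Helios showed the widest separation of the family. Ikzf2 read 8.16, 8.70 and 7.89 on the sanroque arrays and 7.29, 7.16 and 7.09 on the wild-type arrays (log2 intensity). Every sanroque array lay above every wild-type array, and sanroque replicate 2 was the highest. The mean was 8.25 ± 0.41 in sanroque and 7.18 ± 0.10 in wild type (SD, n = 3 each), a 2.10-fold rise (log2 fold 1.07 ± 0.19, limma with Benjamini-Hochberg adjustment over all 19938 genes, adjusted p = 0.0247). The sanroque arrays spread more widely than the wild-type arrays. Leaving out any wild-type array or sanroque replicate 1 kept the log2 fold between 1.03 and 1.12 but gave adjusted p = 0.0600 to 0.0981. The call held without sanroque replicate 2, the highest array (log2 fold 0.85), and without sanroque replicate 3 (1.25).

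Aiolos, the Ikzf3 product, is a family member known for its role in B cells and differentiated lymphocytes. It read 10.73, 10.91 and 10.41 in sanroque and 9.92, 10.25 and 10.12 in wild type. The groups did not overlap, and sanroque replicate 2 was again the highest array. The mean was 10.68 ± 0.25 in sanroque and 10.10 ± 0.17 in wild type (SD, n = 3 each). The log2 fold of 0.59 ± 0.14 did not pass (limma, adjusted p = 0.0616). It passed without sanroque replicate 3, at a log2 fold of 0.72 (adjusted p = 0.0245). It also passed when genes with a mean log2 below 5 or below 6 were left out of the test (adjusted p = 0.0340 and 0.0322). In all it passed in 5 of 17 other settings, with limma's adjusted p up to 0.217. Ikzf3 is also expressed in B cells, whose markers were higher on the same arrays with a median log2 fold of 1.66 over 11 genes, and their part in the Ikzf3 difference was not tested.

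Ikaros itself showed a small difference. Ikzf1 read 11.47, 11.47 and 11.47 in sanroque and 11.27, 11.35 and 11.39 in wild type. The sanroque arrays were nearly identical and lay just above the wild-type arrays. The log2 fold was 0.14 ± 0.06 (limma, adjusted p = 0.326), with a 95% interval from -0.01 to 0.29.

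Eos and Pegasus showed no separation of the genotypes. Ikzf4, whose product Eos works with Foxp3 in regulatory T cells, read 5.40, 5.45 and 5.23 in sanroque and 5.19, 5.06 and 5.68 in wild type, so that wild-type values lay on both sides of the sanroque values. Its log2 fold was 0.05 ± 0.16 (95% interval -0.32 to 0.43). The mean of Ikzf4 over the 6 arrays, 5.33, lay below the median level over genes (5.91). A difference hidden by background therefore cannot be told from none. Ikzf5, which encodes the divergent member Pegasus, read 9.52, 9.58 and 9.62 in sanroque and 9.68, 9.57 and 9.78 in wild type, with overlapping groups. Its log2 fold was -0.10 ± 0.08 (95% interval -0.28 to 0.08). A second Ikzf5 probe set, with a mean of 9.26 against 9.62 for the one used, gave -0.24 ± 0.12. The 95% interval of Ikzf2, from 0.63 to 1.52, lay above those of Ikzf1, Ikzf4 and Ikzf5. The differences between these genes were not tested.

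**Figure D1:**
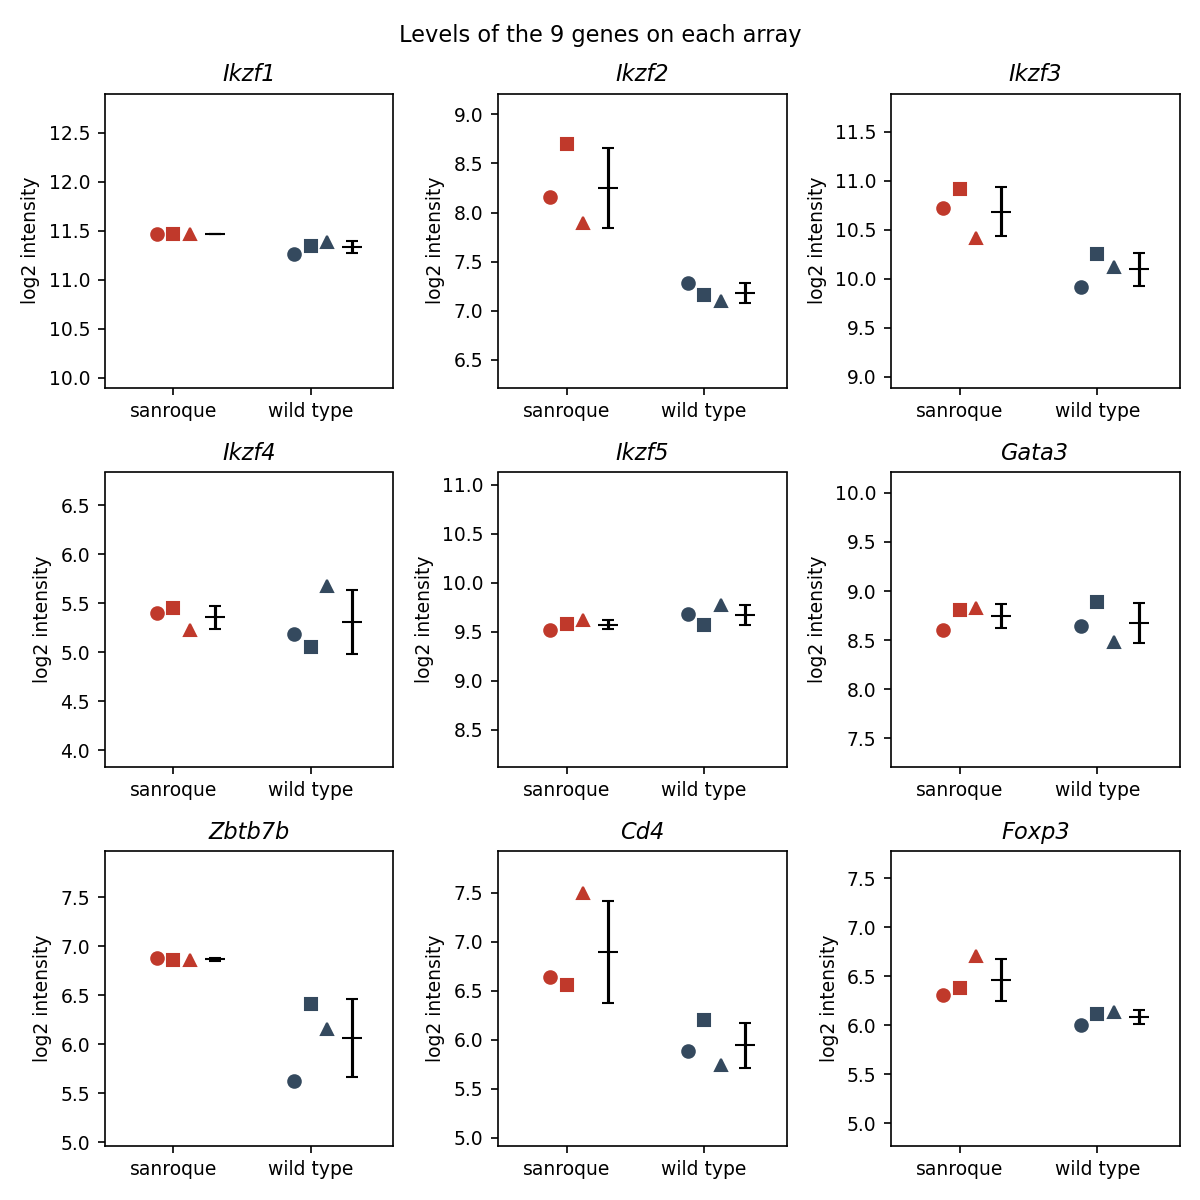
Log2 intensity of each gene on the 6 arrays, with sanroque at the left and wild type at the right of each panel. Circles, squares and triangles are replicates 1, 2 and 3, bars are the mean and SD of 3 arrays, and every panel spans the same range on the log2 axis. Ikzf2, Zbtb7b and Cd4 show the widest steps, while Ikzf4, Ikzf5 and Gata3 overlap.

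Among the CD4-lineage genes, Zbtb7b was called higher. It encodes ThPOK, the factor that commits thymocytes to the CD4 lineage and represses CD8-lineage genes. It read 6.88, 6.86 and 6.86 in sanroque and 5.63, 6.41 and 6.15 in wild type. The sanroque arrays were almost equal and all above the wild-type arrays, which spread widely. The mean was 6.87 ± 0.01 in sanroque and 6.07 ± 0.40 in wild type (SD, n = 3 each), a 1.75-fold rise (log2 fold 0.80 ± 0.18, limma, adjusted p = 0.0490). The adjusted p lay just under the 0.05 threshold. Without wild type replicate 1, the lowest array, the log2 fold was 0.59 (adjusted p = 0.0718). The call held when wild type replicate 2 was removed and was lost on leaving out any other array (adjusted p = 0.0718 to 0.147).

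Windows around 2 annotated start sites each of Zbtb7b and Foxp3 are printed because they belong to CD4-lineage genes whose groups did not overlap. RefSeq windows (GRCm38.p6) of 250 bases before and 50 after a start were at hand for 5 of the 9 genes, 8 windows in all. The Zbtb7b windows lie at chr3:89393329-89393628 (upstream start) and chr3:89387622-89387921 (downstream start) on the minus strand, and the Foxp3 windows at chrX:7579426-7579725 (upstream start) and chrX:7580233-7580532 (downstream start) on the plus strand. Capitals mark GGGAA, the core letters bound by Ikaros family proteins, and TGTGGT, letters bound by Runx proteins, on either strand (TTCCC and ACCACA).
Zbtb7b upstream: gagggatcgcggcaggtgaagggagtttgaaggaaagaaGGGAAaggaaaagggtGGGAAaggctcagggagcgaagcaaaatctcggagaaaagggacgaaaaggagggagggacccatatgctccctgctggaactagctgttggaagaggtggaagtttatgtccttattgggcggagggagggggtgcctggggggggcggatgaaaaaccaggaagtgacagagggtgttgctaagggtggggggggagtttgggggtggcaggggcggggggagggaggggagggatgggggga
Zbtb7b downstream: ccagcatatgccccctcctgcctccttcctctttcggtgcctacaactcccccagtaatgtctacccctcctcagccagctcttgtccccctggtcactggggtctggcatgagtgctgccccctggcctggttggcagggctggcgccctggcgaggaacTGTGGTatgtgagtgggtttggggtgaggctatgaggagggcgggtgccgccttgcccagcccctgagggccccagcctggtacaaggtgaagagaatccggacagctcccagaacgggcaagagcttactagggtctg
Foxp3 upstream: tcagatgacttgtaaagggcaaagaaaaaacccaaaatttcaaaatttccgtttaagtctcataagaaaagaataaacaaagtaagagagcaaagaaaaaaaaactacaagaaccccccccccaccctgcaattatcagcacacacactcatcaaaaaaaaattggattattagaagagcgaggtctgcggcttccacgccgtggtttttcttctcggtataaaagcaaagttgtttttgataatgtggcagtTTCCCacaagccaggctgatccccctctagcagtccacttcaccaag
Foxp3 downstream: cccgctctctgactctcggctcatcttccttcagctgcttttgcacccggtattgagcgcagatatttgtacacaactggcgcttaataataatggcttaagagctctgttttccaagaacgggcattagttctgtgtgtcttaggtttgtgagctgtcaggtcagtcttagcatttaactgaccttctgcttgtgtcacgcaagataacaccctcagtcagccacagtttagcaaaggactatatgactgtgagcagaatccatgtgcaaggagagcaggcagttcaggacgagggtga
GGGAA occurred 2 times in the upstream Zbtb7b window, 0 times in the downstream one, 1 time in the upstream Foxp3 window and 0 times in the downstream one. It was found in 4 of the 8 windows of these genes and in 62.7% of all 32851 windows in the table. TGTGGT occurred 1 time in the downstream Zbtb7b window, the only one of the 8 to hold it, and in 16.8% of all windows. The 2 motifs share no overlapping letters, and a match describes the letters only.

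Cd4 encodes the coreceptor that binds MHC class II and that CD8+ T cells normally silence. It read 6.64, 6.55 and 7.49 in sanroque and 5.89, 6.20 and 5.74 in wild type. Every sanroque array was above every wild-type array, and sanroque replicate 3 stood highest. The mean was 6.89 ± 0.52 in sanroque and 5.94 ± 0.23 in wild type (SD, n = 3 each). The log2 fold of 0.95 ± 0.25 (1.93-fold) did not pass (limma, adjusted p = 0.0783). Without sanroque replicate 3 the log2 fold was smaller, 0.65, and passed (adjusted p = 0.0452). It also passed under the same filters on dim genes (adjusted p = 0.0341 and 0.0335). In all it passed in 5 of 17 other settings, with limma's adjusted p up to 0.242. Some mouse dendritic cells also express Cd4: of 8 dendritic cell markers 1, Itgax, was called higher, and the log2 of their summed intensity ran from 10.15 to 10.54 in sanroque and from 10.63 to 10.79 in wild type. Ccr9, the brightest of them, read 9.97, 9.31 and 10.17 in sanroque and 10.59, 10.43 and 10.34 in wild type. Without it, a sum chosen after these values were seen, the other 7 ran from 8.36 to 8.98 in sanroque and from 7.84 to 8.19 in wild type. The direction of the sum turned with Ccr9, whose mean of 10.13 lay at the 95th percentile of levels over genes. Itgax had a log2 fold of 1.96 ± 0.31. The rest of the list, without Ccr9, had log2 folds between -0.18 and 0.23 and were not called. Neither sum thus follows the list as a whole, and the part of these markers in the Cd4 difference was not tested.

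Foxp3 read 6.31, 6.38 and 6.70 in sanroque and 6.00, 6.12 and 6.14 in wild type. The groups did not overlap, and sanroque replicate 3 was the highest, as for Cd4. The log2 fold of 0.38 ± 0.11 (1.30-fold) did not pass (limma, adjusted p = 0.109). Foxp3 lies on the X chromosome, and sanroque replicate 1, the array with high Xist, had the lowest sanroque value. Foxp3, Cd4 and Zbtb7b lay close to the median level over genes (5.91), with means over the 6 arrays of 6.27, 6.42 and 6.47. The deposited values carry no detection call, so how much of these levels was background cannot be told. That limit holds for the folds of all 3, the 1.75-fold of Zbtb7b included.

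Gata3, which acts upstream of ThPOK in CD4 commitment and is also expressed in CD8+ T cells, read 8.61, 8.80 and 8.83 in sanroque and 8.64, 8.89 and 8.48 in wild type. The highest and the lowest array were both wild type. The log2 fold was 0.08 ± 0.12 (limma, adjusted p = 0.855), with a 95% interval from -0.20 to 0.35.

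**Figure D2:**
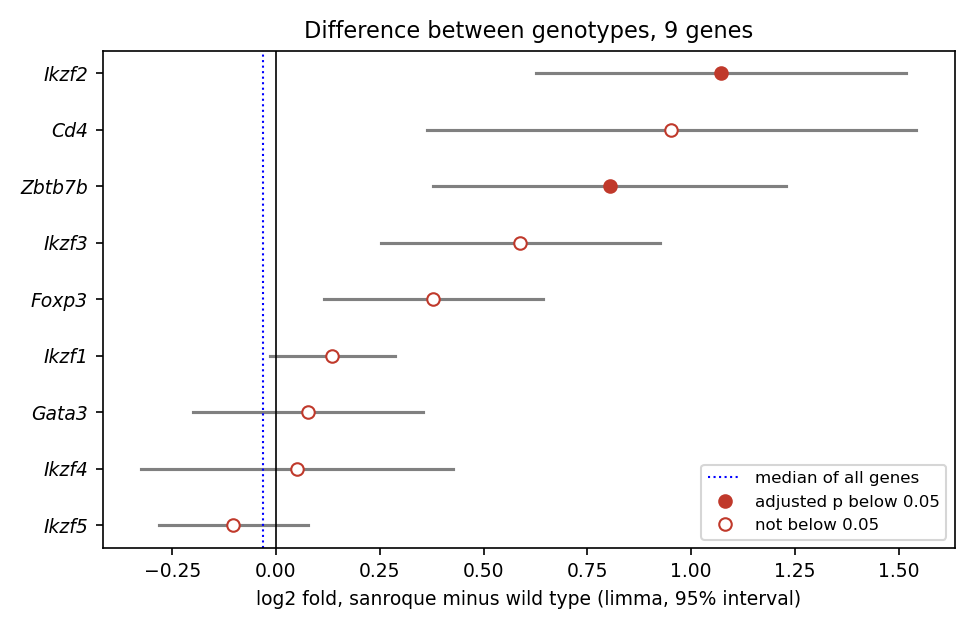
Log2 fold, sanroque minus wild type, of each gene with limma's 95% interval. Filled points passed at an adjusted p below 0.05 and the dotted line is the median of all genes (-0.03). Only Ikzf2 and Zbtb7b are filled, and the intervals of Ikzf1, Gata3, Ikzf4 and Ikzf5 include 0.

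In all, 2 of the 9 genes were called higher and 0 lower, where the fit called 3.26% of all genes higher and 2.51% lower. The groups did not overlap in 6 of the 9, all higher in sanroque, against 9.46% of all genes (22.7% in either direction). The median log2 fold was 0.38 over the 9 genes and -0.03 over all genes. Leaving out sanroque replicate 1, wild type replicate 1 or wild type replicate 3 gave 0 calls among the 9. There was 1 call when sanroque replicate 2 or wild type replicate 2 was removed, and there were 3 after removal of sanroque replicate 3. Removing sanroque replicate 1 (high Xist) and wild type replicate 2 (most B cell and myeloid signal of its group) together gave 0. Over all genes, 650 were called higher in the reported setting. Removing sanroque replicates 1, 2 and 3 in turn gave 455, 337 and 587, and wild type replicates 1, 2 and 3 gave 196, 398 and 427. The joint removal gave 326.

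**Figure D3:**
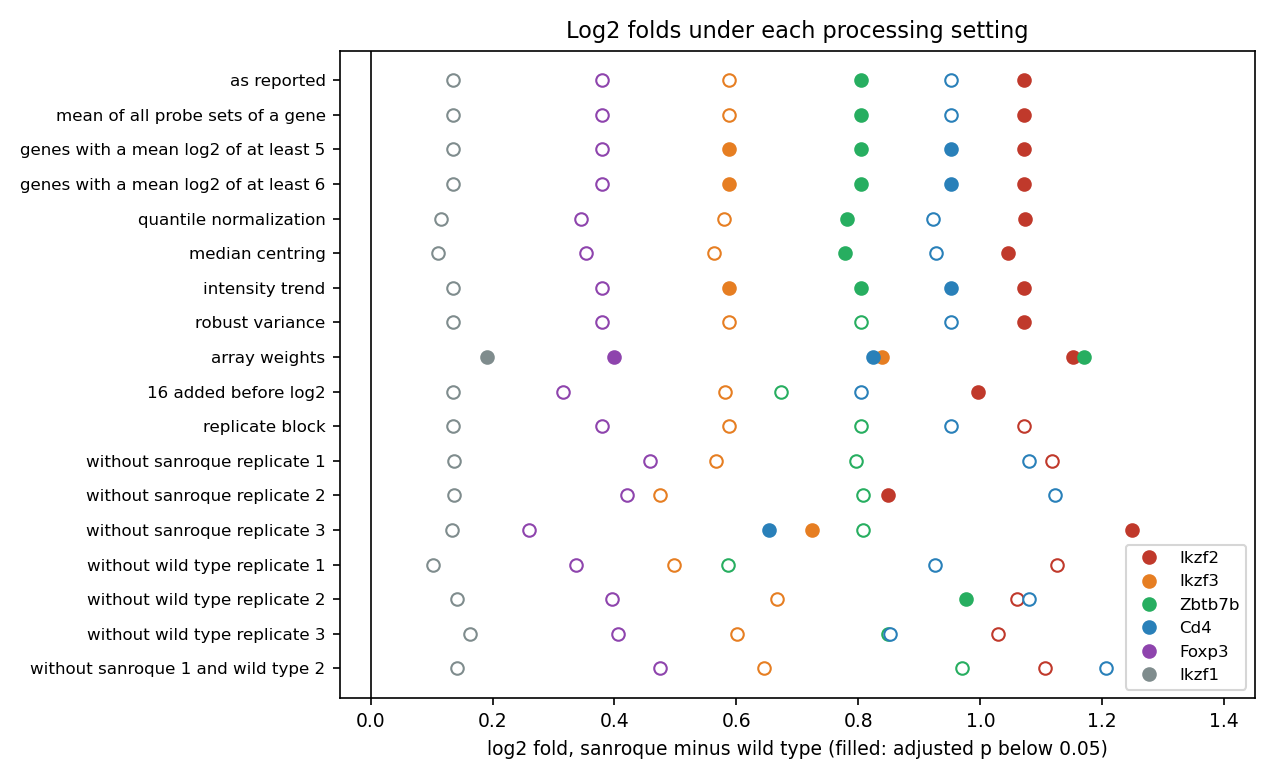
Log2 fold of the 6 genes whose groups did not overlap under the reported setting and 17 others, filled where the adjusted p was below 0.05. All points lie above 0. Ikzf2 stayed between 0.85 and 1.25, and the filled and open points show which settings kept or lost a call.

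The 6 genes with separate groups did not peak on the same sanroque array. Set against the wild-type mean, Ikzf2 was higher by 0.98, 1.52 and 0.72 in sanroque replicates 1 to 3, and Ikzf3 by 0.63, 0.82 and 0.32, so that both were highest in replicate 2 and lowest in replicate 3. Cd4 was higher by 0.70, 0.61 and 1.55 and Foxp3 by 0.22, 0.30 and 0.62, both highest in replicate 3. Zbtb7b was higher by 0.82, 0.79 and 0.80 and Ikzf1 by 0.13, 0.13 and 0.14, with almost no spread. These are differences within 3 arrays of a genotype and carry no test. On the same arrays the log2 summed intensity of the B cell markers was 13.26, 13.03 and 13.32, highest in replicate 3, and that of the monocyte, macrophage and neutrophil markers was 13.58, 13.14 and 12.89, highest in replicate 1. The NK cell markers summed to 9.78, 10.18 and 9.63, the same order as Ikzf2 and Ikzf3. Most of that sum was Eomes, which read 9.38, 9.85 and 9.22 there and 8.12, 8.40 and 8.07 in wild type. Ncr1 read 4.13, 4.84 and 4.46 in wild type. Of the other NK cell markers Klrb1c kept that order in sanroque, while Ncr1, Klra8, Klre1 and Fcgr3 did not. The order of the sum is therefore that of Eomes and not of the list as a whole. The log2 fold was above 0 for 5 of the 6 NK cell markers, with Ncr1 at -0.12. The plasma cell markers summed to 10.68, 10.74 and 11.12, highest in replicate 3 as Cd4 and Foxp3 were. The CD4 T cell markers outside the 9 genes (Cd40lg, Ctla4, Izumo1r and Cxcr5) summed to 8.83, 9.39 and 9.14 in sanroque. In wild type they summed to 8.13, 8.45 and 8.08. Of these 4, 2 were called higher, where 3.26% of all genes were: Ctla4 (log2 fold 2.13) and Cxcr5 (1.40). Cd40lg (0.27) and Izumo1r (-0.11) did not pass. In wild type Cxcr5 read 5.65, 6.45 and 5.59, the order of the B cell marker sum there (11.34, 12.43 and 11.10). In sanroque Cxcr5 read 7.07, 7.37 and 7.45, which is not the order of that sum. Wild type replicate 2, the highest wild-type array of the B cell, myeloid, plasma cell and NK cell lists, was also that of Ikzf3, Zbtb7b and Cd4. These genes lay 0.16, 0.35 and 0.25 above the wild-type mean there. Ikzf2 was highest in wild type replicate 1, and Ikzf1 and Foxp3 in wild type replicate 3. The part of the marker genes in the differences of the 6 genes was not tested.

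**Figure D4:**
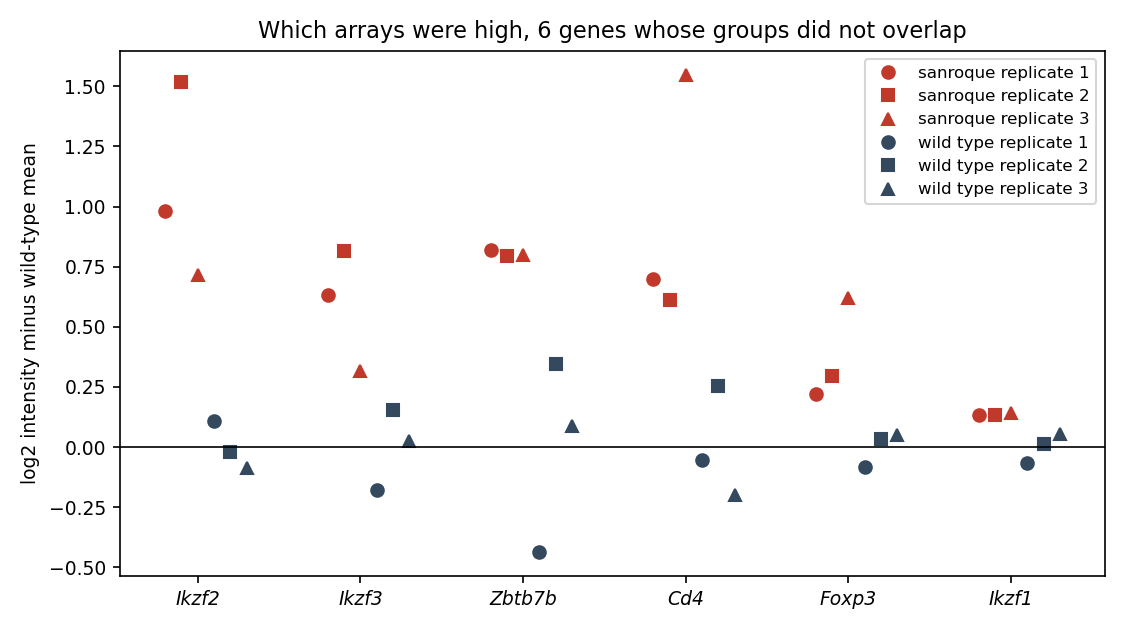
Log2 intensity minus the wild-type mean for the 6 genes whose groups did not overlap, with sanroque arrays in red to the left and wild-type arrays in blue to the right. Symbols give the replicate number. Ikzf2 and Ikzf3 are highest in sanroque replicate 2 (1.52 and 0.82), Cd4 and Foxp3 in sanroque replicate 3 (1.55 and 0.62).

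The genes whose pattern over the 6 arrays was closest to each of 5 genes were found by the root mean square difference in log2 intensity after centring each gene, among 9369 named genes with a mean log2 of at least 6. Closest to Ikzf2 were Lgals3 (0.10), which encodes galectin-3, Tmem140 (0.12) and Arsb (0.15), a lysosomal sulfatase gene. Lgals3 read 8.28, 8.88 and 7.93 in sanroque and 7.23, 7.05 and 7.20 in wild type, so that it too was highest in sanroque replicate 2. Closest to Zbtb7b were Ncf1 (0.13), which encodes a subunit of the phagocyte NADPH oxidase, Gsr (0.13) and the histone gene H4c6 (0.14). Closest to Cd4 were Chst3 (0.16), Cyb561a3 (0.16) and Vwa5a (0.18). Closest to Foxp3 were Htt (0.03), Mycbp2 (0.04) and Arhgef12 (0.05), and to Gata3 were Pank3 (0.03), Tm9sf2 (0.03) and Gmps (0.04). Among the 9 genes themselves, Ikzf2 was closest to Ikzf3 (0.30), while Ikzf2 and Cd4 were 0.53 apart. Cd4 was about as close to Foxp3 (0.367) as to Zbtb7b (0.369). These pairs were not mutual: Ikzf3 was closest to Zbtb7b (0.22) and Foxp3 to Ikzf1 (0.17).

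Regulatory T cell genes other than Foxp3 and Ikzf2 moved in both directions. Of 13 measured, 3 were called higher, 1 lower and 9 did not pass, where 5.77% of all genes were called, and their median log2 fold was 0.15. Ctla4, an inhibitory receptor, read 6.87, 8.46 and 7.57 in sanroque and 5.56, 5.57 and 5.38 in wild type (log2 fold 2.13 ± 0.35, limma, adjusted p = 0.0197), highest in sanroque replicate 2 as Ikzf2 was. Nrp1, a surface receptor of thymus-derived regulatory T cells, rose by 1.10 ± 0.11 on the log2 scale and Il2ra, the high-affinity interleukin 2 receptor chain, by 0.65 ± 0.13. Tnfrsf18, which encodes GITR, fell by 0.54 and read 8.54, 8.62 and 8.73 in sanroque and 9.23, 9.15 and 9.13 in wild type. The regulatory T cell genes Gpr83, Izumo1r and Lrrc32 had log2 folds of -0.11, -0.11 and 0.15, and none of them passed. Against 4 calls in all, there was 1 when wild type replicate 1 was removed. There were 2 on removing sanroque replicate 2, wild type replicate 2 or wild type replicate 3, and 2 on removing sanroque replicate 1 and wild type replicate 2 together. Without wild type replicate 1 the calls over all genes fell too, to 196 higher and 22 lower, against 650 and 501. Nrp1 and Ctla4 are not restricted to regulatory T cells.

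Genes that set or maintain the choice of coreceptor were not called in either direction: 0 of 16 measured passed by limma, where 5.77% of all genes did, with a median log2 fold of 0.14. At an unadjusted p below 0.05 there were 4, all with positive log2 folds, where 18.9% of all genes reached it and 8.16% with a positive log2 fold. Runx2 and Tcf7 were not analysed here. Runx3, the CD8-lineage factor that silences Cd4 and Zbtb7b, read 10.27, 10.38 and 10.16 in sanroque and 10.09, 9.90 and 9.86 in wild type (log2 fold 0.32 ± 0.09, limma, adjusted p = 0.104). Its groups did not overlap, with sanroque above wild type as for Cd4 and Zbtb7b. Myb, a factor of thymocyte development, had the widest difference of the list (log2 fold 0.72 ± 0.23, limma, adjusted p = 0.140). Bcl11b and Satb1, which maintain T cell identity, had log2 folds of 0.19 and 0.12. Leaving out sanroque replicate 3 gave 1 call in this list, and array weights gave 7. Over all genes these settings called 587 and 1998 higher and 728 and 2735 lower, against 650 and 501.

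The share of Ikaros partner genes called was near that of all genes. Of 18 genes of the NuRD, Sin3 and CtBP complexes and cereblon, 0 were called higher and 1 lower, where 5.77% of all genes were called in either direction, and the median log2 fold was 0.00. The deacetylase gene Hdac2 fell by 0.48 on the log2 scale and read 10.30, 9.99 and 10.18 in sanroque and 10.73, 10.63 and 10.57 in wild type (limma, adjusted p = 0.0335). The groups of 5 genes did not overlap with sanroque lower, where 13.2% of all genes did so: Hdac2, Hdac1 (-0.20), Rbbp7 (-0.27), Mbd3 (-0.38) and Mta3 (-0.06). Chd4, the NuRD remodeller, had a log2 fold of 0.06 ± 0.07, and Crbn, whose product is the receptor for drugs that degrade Ikaros and Aiolos, of -0.05 ± 0.10. The list gave 1 call on removing sanroque replicate 1 or sanroque replicate 3 and 0 on removing any other array. Over all genes the former settings called 148 and 728 lower and the latter 22 to 454, against 501.

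Of 12 helper lineage genes measured, 2 were called higher and 0 lower, where 3.26% of all genes were called higher and 2.51% lower, with a median log2 fold of 0.16. Tbx21, the gene of T-bet, which serves both type 1 helper and effector CD8+ T cells, read 8.84, 9.30 and 8.30 in sanroque and 6.12, 6.60 and 6.32 in wild type (log2 fold 2.46 ± 0.24, limma, adjusted p = 0.00388). Maf, a factor of follicular helper and other helper cells, rose by 0.76 ± 0.13 on the log2 scale. Bcl6, the follicular helper factor, had a log2 fold of 0.60 ± 0.14 and Rora of 1.06 ± 0.30, and neither passed (limma, adjusted p = 0.0595 and 0.0997). Cd40lg, a defining surface gene of helper cells, read 4.54, 4.50 and 4.95 in sanroque and 4.48, 4.40 and 4.30 in wild type. Its log2 fold of 0.27 ± 0.13 did not pass (limma, adjusted p = 0.339). The mean of 4.53 lay near the 25th percentile of levels over genes (4.49). The cytokine genes Il4, Il5, Il13, Il21 and Il17a had log2 folds between -0.17 and 0.06. Their means ran from 3.82 to 5.72, all below the median level over genes (5.91), so background could hide a difference in them. Removing wild type replicate 1 or wild type replicate 2 gave 1 call in this list, where 196 and 398 of all genes were called higher, against 650.

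**Figure D5:**
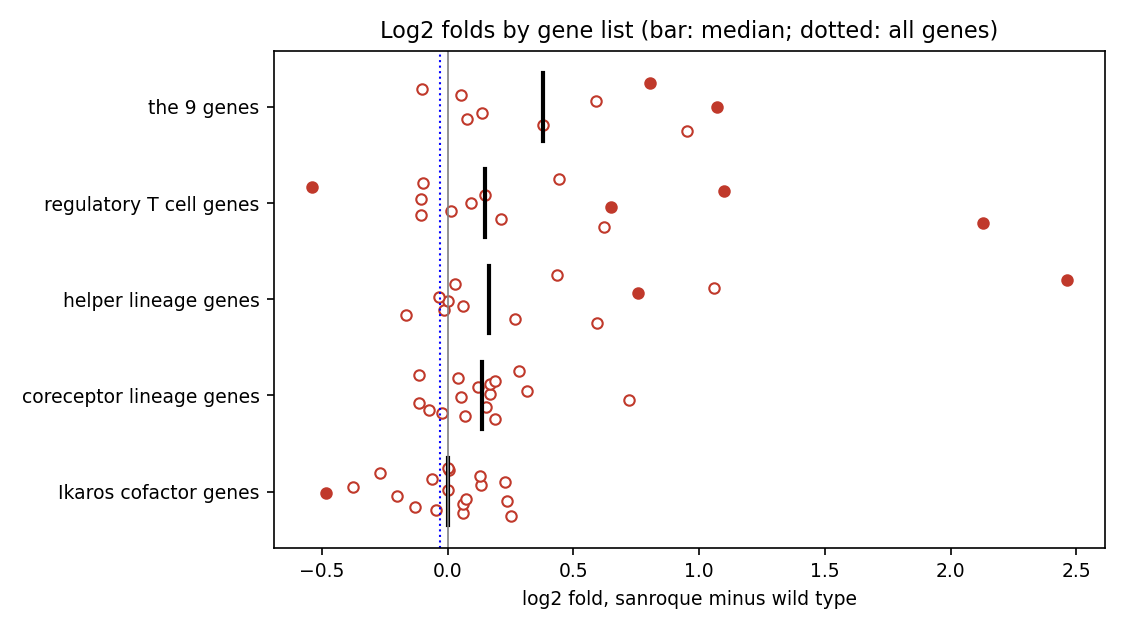
Log2 folds, sanroque minus wild type, of the 9 genes and of 4 lists around them, each point a gene and filled where the adjusted p was below 0.05. Black bars are list medians (0.38, 0.15, 0.16, 0.14 and 0.00, top to bottom) and the dotted line is the median of all genes. The Ikaros cofactor genes centre on 0.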

How the data were processed

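RNA of sorted cells was labelled with biotin and hybridised to 6 Affymetrix gene-level mouse arrays, 3 per genotype, per the labels' protocols. The deposited intensities, 1 for each probe set on each array, ran from 9.56 to 31996 and were taken as linear from that range. The submitters' processing notes name Partek. How the authors corrected background, summarized probes and normalized arrays is not given in the sources used here. Arrays differed by at most 0.14 on the log2 scale at any compared quantile, so log2 of the deposited intensities was used as it stood.

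Of 35399 probe sets, 21789 had exactly 1 gene symbol, updated through the GRCm38.p6 gene table, and they gave 19938 genes. Genotypes were compared with limma 3.58.1 in R 4.3.3 (lmFit and eBayes, two-sided tests) and no minimum level was set. Genes were called where the p adjusted by Benjamini-Hochberg across all 19938 was below 0.05. Each log2 fold is the sanroque mean less the wild-type mean, ± its moderated standard error, and intervals are limma's 95% intervals, not adjusted. The number of arrays limits the precision. The fit was tested on 10 simulated data sets with 200 changed genes each. It recovered 61.8% of log2 changes of 0.5, 98.1% of 1 and 100% of 2. Of its calls 6.2% were false, at the 0.05 threshold. The simulated errors were normal and independent between arrays, without the marker and Xist differences seen here.

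The genes, the lists and the tests were chosen with earlier results of these data known. Named genes were the 9 genes, the called members of each list (the 2 with the smallest p where none passed), and the 3 nearest patterns of 5 genes. Further list members were named after their values were seen. Plots were made in Python 3.11.15 with matplotlib 3.10.9.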

Additional observations from a re-analysis of the deposited data

How the results depend on the processing

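Direction was kept in all 17 alternative settings for Ikzf1, Ikzf2, Ikzf3, Ikzf5, Foxp3, Zbtb7b and Cd4. The call of Ikzf2 was kept in 11 of them and that of Zbtb7b in 8. Of the genes not called in the reported setting, Ikzf3 and Cd4 passed in 5 each and Ikzf1 and Foxp3 in 1 each. Ikzf4 turned to -0.094 without sanroque replicate 1 and wild type replicate 2 together. Leaving out single arrays moved Ikzf4 between -0.073 and 0.24 and Gata3 between -0.017 and 0.19. The cause of the changes below was not tested unless the setting itself names it.

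Testing genes with a mean log2 of at least 5 alone called 4 of the 9 genes and 4 helper lineage genes. At a mean of at least 6, without Ikzf4, it called 4 of the 8 left, with a median log2 fold of 0.48, 2 Ikaros cofactor genes and 4 helper lineage genes. An intensity trend called 4 of the 9, robust variance 1 and 16 added before log2 1. With robust variance and with 16 added, the gene still called was Ikzf2 and the call of Zbtb7b was lost. Array weights, which ran up to 7.99 for wild type replicate 1, called 1998 genes higher and 2735 lower over all genes. They called 6 of the 9 genes, 7 regulatory T cell, 7 coreceptor lineage, 7 Ikaros cofactor and 5 helper lineage genes. Leaving out sanroque replicate 1 and wild type replicate 2 together called 326 genes higher and 27 lower, 0 of the 9 genes (median 0.47), 2 regulatory T cell genes and 0 Ikaros cofactor genes.

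Leaving out each array in turn called 196 to 587 genes higher and 22 to 728 lower, against 650 and 501. It called 0 to 3 of the 9 genes, whose median log2 fold ran from 0.26 to 0.46. It called 1 to 4 regulatory T cell, 0 to 1 coreceptor lineage, 0 to 1 Ikaros cofactor and 1 to 3 helper lineage genes.

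The replicate numbers do not pair the arrays: deviations of same-numbered arrays from their group means correlated at -0.05, -0.16 and -0.36 across genes, and no array correlated best with its own number. With the replicate number as a block, 271 genes were called higher and 30 lower, with 0 of the 9 genes, 2 regulatory T cell, 0 Ikaros cofactor and 1 helper lineage genes. On the low part of the scale signal cannot be told from background. The folds of Ikzf4, Il2ra, Nrp1, Cd40lg and the cytokine genes may therefore understate a change.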
